A study of Schizosaccharomyces pombe with 5 samples.

Results

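The mug (meiotically upregulated gene) and meu (meiotic expression upregulated) genes are fission yeast genes named because their transcripts rise when cells enter meiosis and form spores. Members were the protein-coding genes whose symbol is mug or meu followed by a number, looked up by systematic identifier. The RefSeq annotation holds 110 such genes, of which 109 (91 mug and 18 meu) had a value among the 6727 genes counted. Genes of the same naming scheme that are annotated as noncoding RNA, 5 in all, were left out.

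The study sequenced RNA that came down with Slr1p, a LARP1 homolog that binds RNA in Schizosaccharomyces pombe, and asked which RNAs associate with it. Every library came from wild-type strain yAS99 cultured in rich YES medium at 32 °C and fixed with formaldehyde. There were 2 libraries of Slr1p immunoprecipitation (IP), 2 of input RNA taken by hot phenol extraction with no antibody, and 1 of an IP with non-immune rabbit IgG. Titles call the paired libraries biological replicates, and the IgG IP had no replicate. Total counts ran from 62802923 to 65859940 in the input and Slr1p IP libraries and were 12882920 in the IgG IP, so low members had the least precise values there.

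In fission yeast, nutrient starvation normally starts mating, meiosis and sporulation, and many of the mug and meu genes are switched on in waves along that path. A middle wave depends on Mei4, a forkhead transcription factor that is itself made in meiosis and that binds a DNA element with the core GTAAACA. In growing cells, the YTH-family protein Mmi1 binds hexamers of the form UNAAAC in a number of meiotic transcripts and directs them to nuclear decay. The cultures here were growing in rich medium, and 6 of the 7 marker genes of meiotic or sporulating cells were low in input: mei4, spo5, spo6, rec8, mde2 and dmc1 lay at or below percentile 7.80 of protein-coding genes by level per length. The exception, isp3, a spore coat gene, lay at percentile 44.7. The vegetative markers tef103, pma1, act1 and cdc2 lay between percentiles 77.3 and 97.6.

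The forkhead core was common upstream of the members. The choice by name did not use the motif, but the names were given for a rise in meiosis. The share is therefore not independent of how the members were named. In the 300 bases from 250 before to 50 after the annotated gene start in assembly ASM294v3, GTAAACA or its reverse complement TGTTTAC was found at 54 of 109 members (49.5%), against 840 of 5101 windows of all protein-coding genes counted (16.5%). The longer form GTAAACAAA, or its reverse complement, overlaps the core and was found at 32 members (29.4%) against 5.76% of all windows. Gene starts were less certain for the members: 45 of them (41.3%) had no annotated 5′ untranslated region, against 11.6% of all genes. For these the window was placed around the start codon, from 250 bases before to 50 after. The core was found at 39.7% of members with at least 20 annotated untranslated bases and at 62.2% of those with none, against 16.3% and 17.9% of all genes. A match is a run of letters and not a measured binding site.

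Windows of 41 bases from RefSeq are shown for members at both ends of the Slr1p IP comparison, 5′ to 3′ on the gene's strand, with the core in capitals. They lie at chrI:1219021-1219061 on the minus strand for mug94, chrIII:2231559-2231599 on the plus strand for mug137, chrI:3094927-3094967 on the minus strand for mug74, chrII:2393130-2393170 on the minus strand for mug20 and chrII:1859158-1859198 on the minus strand for mug176. The first 3 genes had higher and the last 2 lower counts in Slr1p IP than in input, so the core stood at members of both kinds.
mug94: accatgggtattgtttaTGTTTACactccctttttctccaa
mug137: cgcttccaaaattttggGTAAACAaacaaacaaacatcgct
mug74: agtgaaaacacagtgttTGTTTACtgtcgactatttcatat
mug20: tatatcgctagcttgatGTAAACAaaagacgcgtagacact
mug176: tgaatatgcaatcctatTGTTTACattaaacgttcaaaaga

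**Figure D1:**
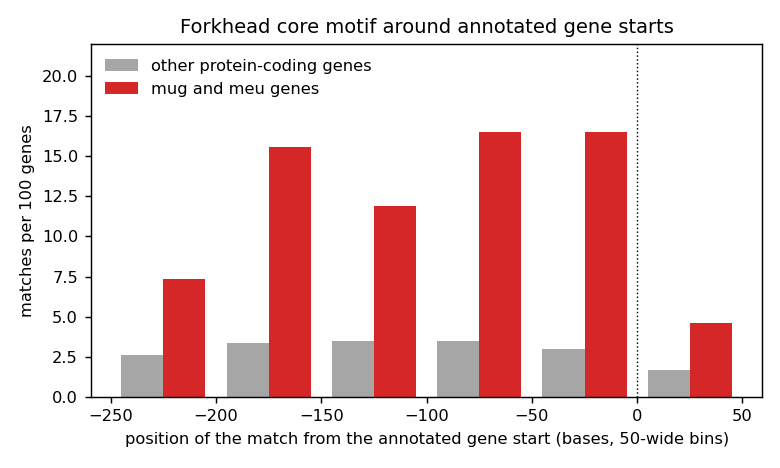
Matches of the forkhead core per 100 genes (vertical axis) by distance from the annotated gene start in bases (horizontal axis, 50-base bins), for mug and meu genes and for other protein-coding genes. Member bars exceed the grey bars in each bin. At members 74 of the 79 matches lie upstream of the start, with a median position of -94 bases. At other genes 794 of 876 do, with a median of -111.5 bases. The window itself lies mostly upstream, with 250 of its 300 bases there.

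Members were scarce in growing cells. Per length of annotated transcript, with counts per kilobase scaled to the same total in each library, the median member level in input was 3.39 against 21.4 for the other 4993 protein-coding genes. In the ranking of all protein-coding genes by mean input level per length, 76 of 109 members (69.7%) fell in the lowest 25%, 54 in the lowest 10%, 19 in the upper 50% and 2 in the top 25%. With coding length in place of transcript length, 73 fell in the lowest 25%. The meu genes had a median of 0.892 and the mug genes one of 4.66 on this scale. Counts from a whole culture do not tell a few cells with much of a transcript from many cells with little.

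**Figure D2:**
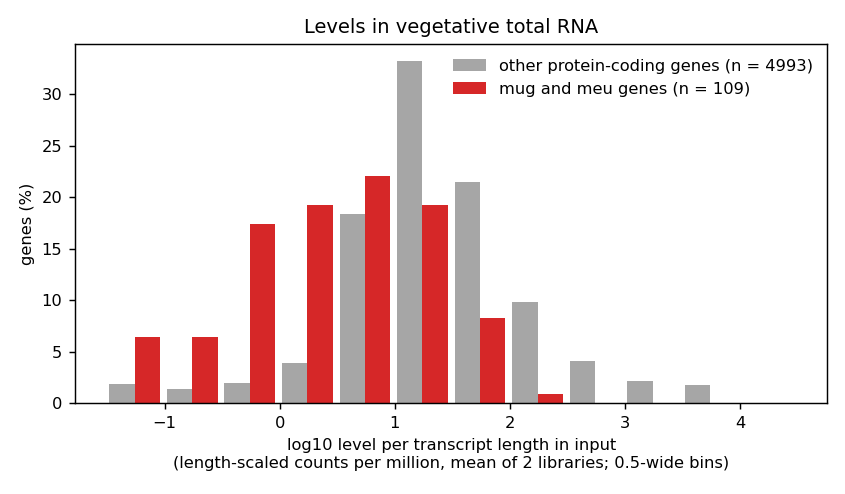
Distribution of the mean level per transcript length in the 2 input libraries (log10 scale, bins 0.5 wide, the lowest bin holding everything below) as a percentage of genes, for 109 mug and meu genes and 4993 other protein-coding genes. Member bars lie to the left, with medians of 3.39 for members and 21.4 for the others.

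The 109 members took 0.177% and 0.193% of counts in the input libraries, 0.151% and 0.136% in the Slr1p IP libraries and 0.173% in the IgG IP (95% Wilson intervals, 0.176 to 0.178%, 0.192 to 0.194%, 0.150 to 0.152%, 0.135 to 0.137% and 0.171 to 0.175%). These intervals cover counting error only, and the gap between the replicate shares of each pair was wider than the intervals. The Slr1p IP libraries held the smaller shares and the IgG IP lay near the inputs. Single members contributed unevenly to these sums, because the most abundant one alone, mug64, had 16998 and 20995 of the 113639 and 121322 member counts in input.

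mug64, which encodes a BAR domain protein, was the most abundant member, at 214 and 289 in input per length, or percentile 90.8 of protein-coding genes. Next came mug161, a splicing factor of the CwfJ family, at 66.5 and 70.8, and mug157 at 58.6 and 60.5. mug105, annotated as a ubiquitin-fold modifier-specific protease, followed at 60.2 and 56.8. The values of mug157 and mug105 do not differ beyond their spread, and both lie above mug33, the next in order, at 35.3 and 44.5. The remaining 8 of the 12 most abundant members ran from mug33, at a mean of 39.9, through mug168, mug58, meu29, mug35, mug113 and mug122 to meu34, a ubiquitin ligase, at 27.7. Each overlaps the next in its values, except that mug122 and meu34 lie below mug113. At the other end, mug112 had 2 and 1 counts in input, 3 and 0 in Slr1p IP and 0 in IgG, and mug96 had 5 and 5, 4 and 1, and 1. These members did not pass the low-count filter, which left 107 for testing, and 0 members were at 0 in all 5 libraries.

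Against input, the Slr1p IP held members on both sides. Of the 107 tested members, 26 were higher and 36 lower at an edgeR quasi-likelihood adjusted p under 0.05, 57.9% in all. Among all 6376 genes tested 69.2% were called, 35% higher and 34.2% lower, so the members' share lay below that of all genes, a difference that was not tested. Their median log2 fold change was -0.02, beside 0.03 for all genes and -0.06 for the other protein-coding genes. Called members with an absolute log2 fold change of 1 or more numbered 38 (35.5%), beside 29.1% of all genes tested. With 0.5 CPM added to each value, the median absolute log2 difference between replicates over tested members was 0.194 in input and 0.0947 in Slr1p IP. The added amount shrinks the differences of scarce members, whose replicates can lie further apart than these medians show.

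mug94 (SPAC10F6.07c), whose product has no described function in the annotation, rose most in Slr1p IP against input among the members called. In CPM, that is, counts set on one scale for all libraries with TMM, it stood at 2.94 and 3.77 in input, 18.0 and 17.1 CPM in Slr1p IP and 17.7 CPM in IgG. Both Slr1p IP libraries lay far above both inputs, and the IgG library lay between the Slr1p IP libraries. The log2 fold change was 2.38 over input (SE 0.17, edgeR adjusted p = 6.26e-09) and -0.01 over IgG (SE 0.20, edgeR adjusted p = 0.957).

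meu18 stood at 10.8 and 13.3 CPM in input, 44.2 and 35.3 CPM in Slr1p IP and 90.4 CPM in IgG. Its Slr1p IP libraries were above both inputs and below IgG, with log2 fold change 1.73 over input (SE 0.15, edgeR adjusted p = 5.05e-08) and -1.18 against IgG (SE 0.17, edgeR adjusted p = 1.80e-05). mug137, a BAR adaptor protein, had the same order at lower levels, with 0.351 and 0.383 CPM in input, 1.22 and 1.12 CPM in Slr1p IP and 3.49 CPM in IgG. Its log2 fold changes were 1.67 over input (SE 0.29) and -1.57 against IgG (SE 0.34), with edgeR adjusted p = 0.000113 and 0.000721. mug74 was alike in order, at 4.63 and 6.22, 17.5 and 16.0, and 30.3 CPM. Next to these, meu13, the fission yeast Hop2 homolog that helps chromosomes pair in meiosis, had 38 and 40 counts in input and 116 and 111 in Slr1p IP, or 0.635 and 0.613 against 1.77 and 1.80 CPM, with 1.89 CPM in IgG. It was higher than input at log2 fold change 1.51 (SE 0.26, edgeR adjusted p = 7.29e-05) and not called against IgG (-0.08, SE 0.37).

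In contrast to these, mug168, mug151 and mug14 were above both controls. mug168 stood at 22.1 and 22.5 CPM in input, 59.0 and 62.7 CPM in Slr1p IP and 35.9 CPM in IgG. mug151, annotated as a transcriptional regulator like HCNGP, stood at 13.7 and 17.9, 42.1 and 39.4, and 22.9 CPM, and mug14, an adducin of the actin cytoskeleton, at 4.74 and 5.27, 11.0 and 12.5, and 7.62 CPM. The groups did not overlap for any of them. Their log2 fold changes over input were 1.45, 1.37 and 1.23 (SE 0.12, 0.14 and 0.16) and over IgG 0.76, 0.83 and 0.62 (SE 0.15, 0.19 and 0.23), with edgeR adjusted p = 0.000486, 0.00129 and 0.0243 over IgG. For mug14 the call over IgG was lost without either Slr1p IP library. After removal of a smooth trend on transcript length and GC content from each library, the values over IgG were -0.00, 0.01 and 0.04 and not called. Those over input were 1.32, 1.09 and 1.26. Outside the 10 highest over input, mug33 (0.57 over input, 0.53 over IgG) and mug191 (0.32 and 0.59) were also called above both controls, as was meu32, taken up below. With the trend removed, mug33 (0.83 and 0.67) and mug191 (0.58 and 0.69) stayed called. For mug33 the call over IgG was lost with library totals alone (0.41) and without either Slr1p IP library. Such losses are not given for mug191.

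The other members of the 10 highest over input were mug135, at 1.26 (SE 0.19), and mug116, at 1.68 (SE 0.60, edgeR adjusted p = 0.0203). mug116 rested on 3 and 6 counts in input and 20 and 10 in Slr1p IP. Its call was lost with DESeq2 and without input replicate 1 (log2 fold change 1.33) or Slr1p IP replicate 1 (1.13). In IgG against input, which uses the same input libraries, the 10 had log2 fold changes from 0.54 (mug151) to 3.24 (mug137).

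**Figure D3:**
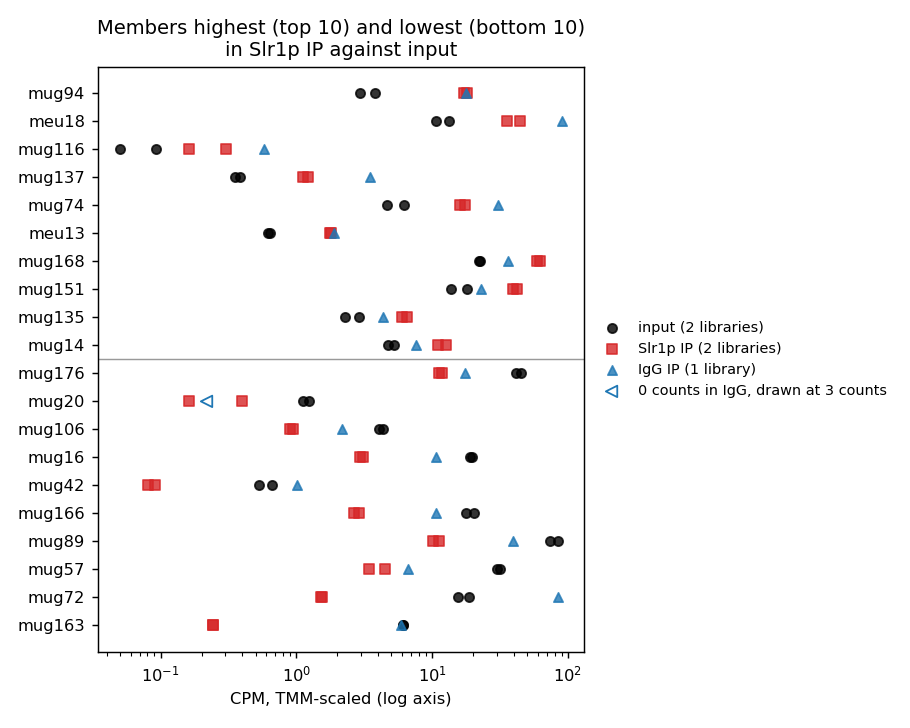
TMM-scaled CPM on a log axis in each of the 5 libraries for the 10 members highest (above the line) and the 10 lowest (below it) in Slr1p IP against input among those called. Among the upper 10, IgG lies right of both Slr1p IP libraries for meu18, mug116, mug137, mug74 and meu13, and among the lower 10 mug72 stands far right in IgG, at 85.0 CPM.

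mug163 (SPCC1620.03) fell most in Slr1p IP against input. It stood at 6.11 and 6.06 CPM in input, at 0.244 CPM in each Slr1p IP library, from 16 and 15 counts, and at 5.88 CPM in IgG. IgG lay close to input and both Slr1p IP libraries far below, with log2 fold changes of -4.63 against input (SE 0.26, edgeR adjusted p = 5.65e-10) and -4.58 against IgG (SE 0.33, edgeR adjusted p = 9.99e-09). mug163 overlaps a counted gene on the other strand (SPCC1620.04c).

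mug72 (SPCC1902.02), annotated as an oxidoreductase, had 931 and 1223 counts in input, 99 and 95 in Slr1p IP and 1171 in the much shallower IgG library, or 15.6 and 18.7, 1.51 and 1.54, and 85.0 CPM. IgG was above the inputs, and Slr1p IP was below both. The log2 fold changes were -3.49 for Slr1p IP against input (SE 0.16, edgeR adjusted p = 1.28e-10), -5.80 against IgG (SE 0.19, edgeR adjusted p = 1.25e-12) and 2.31 for IgG against input (SE 0.16, edgeR adjusted p = 4.75e-09). A counted gene overlaps it on the same strand and none on the other.

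mug89, a Lem3 family subunit of the phospholipid flippases that move lipids across membranes, stood at 84.6 and 74.1 CPM in input, 11.3 and 10.2 CPM in Slr1p IP and 39.6 CPM in IgG. mug16, an UNC-50 family protein of vesicle transport, stood at 19.0 and 19.5, 2.94 and 3.09, and 10.6 CPM. In both, IgG lay between the other groups. Their log2 fold changes were -2.89 (SE 0.13) and -2.67 (SE 0.16) against input, with edgeR adjusted p = 1.07e-10 and 9.86e-10. Against IgG they were -1.88 and -1.81 (SE 0.16 and 0.21). mug176, a BRCT domain protein, a fold known from DNA damage proteins, stood at 44.9 and 41.3, 11.9 and 11.2, and 17.6 CPM, and fell by 1.90 on the log2 scale against input. The other low members were mug57 (-2.96), mug166 (-2.78), mug42 (-2.76), mug106 (-2.20) and mug20 (-2.05), each with both Slr1p IP libraries below both inputs. Counts of mug42 were low, at 32 and 43 in input and 6 and 5 in Slr1p IP (SE 0.45).

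Against IgG, 30 of the 107 members were higher and 32 lower in Slr1p IP, beside 66.3% of all genes called, 34% higher and 32.3% lower. The median log2 fold change of members was -0.01, beside 0.07 for all genes. Members called at an absolute log2 fold change of at least 1 numbered 40 (37.4%), beside 36.7% of all genes. The IgG group is a single library and was assumed to vary like the others. Scaling by library totals alone shifted the median of all genes by -0.12, and gave 22 members higher and 34 lower. With the length and GC trend removed, 16 were higher and 28 lower.

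**Figure D4:**
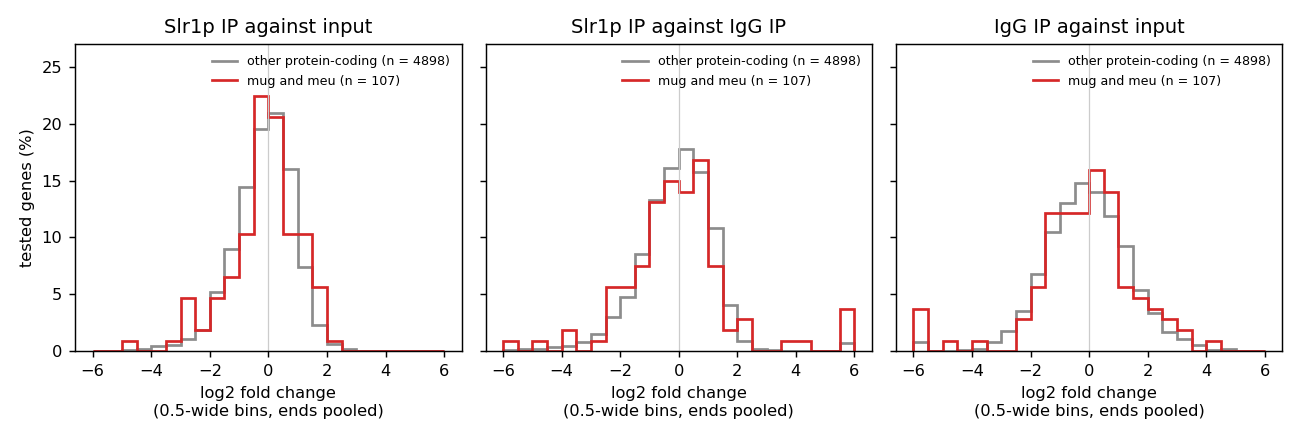
Distribution of log2 fold changes in the 3 comparisons as a percentage of tested genes (bins 0.5 wide, the outermost ones holding everything beyond), for 107 mug and meu genes and 4898 other protein-coding genes. Both curves centre near 0, with member medians of -0.02, -0.01 and -0.04; the red bins at the right end of the middle panel and the left end of the last hold members with 0 or 1 counts in IgG, whose fitted values are not bounds.

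Several of the members highest against IgG were almost missing from the IgG library. mug146 had 66 and 54 counts in input, 90 and 83 in Slr1p IP and 0 in IgG. At the limit a count of 0 allows (3 counts, 0.218 CPM), it was at least 6.25-fold higher in Slr1p IP than in IgG and at least 4.43-fold higher in input than in IgG. mug131 (0 counts in IgG) was at least 1.38-fold higher in Slr1p IP, on 17 and 21 counts there. mug20, also at 0, was at least 1.28-fold higher on 26 and 10 counts. Its edgeR adjusted p of 0.0499 was lost with DESeq2, with no low-count filter and without Slr1p IP replicate 1, and the calls of mug20 and mug131 were lost with DESeq2 or with the length and GC trend removed.

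meu25 had 241 and 221 counts in input, 222 and 248 in Slr1p IP and 1 in IgG. The Slr1p IP and input libraries overlapped, and the ratio of mean CPM in Slr1p IP to IgG was 50.9 (95% counting interval 9.10 to 2016). mug126 had 149 and 241, 251 and 252, and 3 counts, a ratio of 18.2 (6.18 to 88.4). meu31, with 127 and 133, 91 and 54, and 1 counts, was 15.7 times IgG (2.78 to 625) and at the same time lower than input (log2 fold change -0.87, SE 0.26, edgeR adjusted p = 0.00689). That call against input was lost without Slr1p IP replicate 2. Each of the 3 overlaps a counted noncoding gene on the other strand.

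Of the remaining members in the 10 highest against IgG, meu32 (3 counts in IgG) had a ratio of 4.73 (1.58 to 23.2). Its call over IgG was lost with DESeq2 and after removal of the trend on length and GC, and its call over input with DESeq2. meu14, a protein of the forespore membrane, had 54 and 74, 90 and 82, and 4 counts, and log2 fold change 2.21 (SE 0.63, edgeR adjusted p = 0.00559). meu6, a pleckstrin homology protein, was at 1.63 (SE 0.39, edgeR adjusted p = 0.00170), and mug143 at 1.67 (SE 0.26, edgeR adjusted p = 4.45e-05). Against input these members gave smaller values, 0.41 for meu14, 0.37 for meu6 and -0.04 for mug143, none of which was called. Once the smooth trend on transcript length and GC content was taken out, meu6 passed the threshold over both controls. It then stood at 0.65 over input and 2.23 over IgG. For meu14 (0.48) and mug143 (-0.13) the values against input still did not pass. Both comparisons use the same Slr1p IP libraries. Among the 18 meu genes, 7 were higher and 2 lower than IgG, beside 34% and 32.3% of all genes, with a median of 0.56. They had a median of 14.5 counts in the IgG library, 6 of them fewer than 10. Against input 4 were higher and 3 lower, beside 35% and 34.2% of all genes, with a median of 0.39.

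The lowest members against IgG after mug72 and mug163 were mug24, an RNA-binding protein with an RRM domain, at -3.66, and mug42 at -3.52. The value of mug42 (SE 0.66) rested on 6 and 5 counts in Slr1p IP and 14 in IgG. mug24 stood at 0.985 and 1.29 CPM in input, 0.655 and 0.634 CPM in Slr1p IP and 8.21 CPM in IgG, so the IgG library was far above the rest. mug184 stood at 9.72 and 11.0, 4.95 and 4.62, and 26.7 CPM, and mug115 at 5.83 and 6.85, 13.5 and 14.4, and 65.0 CPM. For mug115 the Slr1p IP was above input, by 1.13 on the log2 scale (SE 0.14, edgeR adjusted p = 3.53e-06), and below IgG, at -2.22 (SE 0.16, edgeR adjusted p = 1.33e-08). The other low members against IgG were mug128 (-2.59, on 7 and 5 counts, lost with DESeq2), mug9 (-2.32), mug5 (-2.19) and mug111 (-2.11). For mug5 (SE 0.72) there were 7 and 13 counts in Slr1p IP and 10 in IgG.

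IgG against input shows what came down with an antibody that does not target Slr1p. It placed 29 members higher and 34 lower of 107, beside 70.6% of all genes called, 34.1% higher and 36.5% lower. The median was -0.04 for members and -0.06 for all genes, and 44 members (41.1%) were called at an absolute log2 fold change of 1 or more, beside 44.4% of all genes. Library totals alone shifted the median of all genes by 0.12 and gave 31 higher and 29 lower, and removing the length and GC trend gave 34 higher and 27 lower. The highest were mug128 (4.47, on 3 and 0 counts in input and 8 in IgG), mug115 (3.36), mug137 (3.24), mug116 (2.97) and meu18 (2.91). The lowest were mug20 and mug146, at 0 in IgG and at least 5.41-fold and 4.43-fold higher in input, followed by meu25, meu31 and mug126.

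By annotated role, most members could not be placed, because 84 of 109 carry no term that the role classes use, among them the coilin mug174, the meiotic pairing protein meu13 and mug64. The other classes held at most 6 members each, and none was tested as a class. The nucleic acid terms matched 5 members, among them mug161, mug176 and the RNA-binding proteins mug24 and mug28. Of these, 0 were higher and 3 lower in Slr1p IP than in input, beside 35% and 34.2% of all genes. Against IgG 0 were higher and 4 lower, beside 34% and 32.3% of all genes. mug161, the CwfJ splicing factor, stood at 144 and 129 CPM in input, 65.4 and 63.4 CPM in Slr1p IP and 84.8 CPM in IgG. Its Slr1p IP libraries were below the others, by -1.08 against input (SE 0.12, edgeR adjusted p = 9.11e-07) and -0.40 against IgG (SE 0.15, edgeR adjusted p = 0.0265), the second of which was lost without either Slr1p IP library and after removal of the trend on length and GC.

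Of 6 signalling and protein turnover members, 0 were higher and 1 lower than input, beside 35% and 34.2% of all genes, with a median of -0.05. mug105, placed here by the word ubiquitin, had -0.32 (SE 0.14, edgeR adjusted p = 0.0501), and mug58, a glycerate kinase placed here by the word kinase, -0.22 (SE 0.12). mug58 and mug177 lie on opposite strands of the same stretch of chromosome I, with 3895 and 3719 counts for mug58 and 48 and 41 for mug177 in input. Of 5 members of traffic, cytoskeleton and spore formation, 2 were higher (mug14 and mug56) and 3 lower (mug16, mug65 and mug109) than input, beside the same shares of all genes. mug56 and mug65 both act in spore wall assembly and went apart: mug56 stood at 48.3 in each input, 66.8 and 67.8 in Slr1p IP and 135 CPM in IgG, and mug65 at 35.7 and 30.7, 21.7 and 23.4, and 20.7 CPM. Their log2 fold changes against input were 0.48 (SE 0.12, edgeR adjusted p = 0.00162) and -0.56 (SE 0.13, edgeR adjusted p = 0.00129). Against IgG, mug56 was at -1.0001 (SE 0.14, edgeR adjusted p = 1.30e-05), which turned to 0.14 and lost its call once the trend on length and GC was removed.

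The 3 transporters gave 0 higher and 1 lower than input, beside 35% and 34.2% of all genes. The lower gene was the acetate transporter mug86, at -0.44 (SE 0.19, edgeR adjusted p = 0.0478). Its call was lost with DESeq2 and without input replicate 1 (-0.17) or Slr1p IP replicate 2 (-0.28). mug73 was at -0.02 (SE 0.19). Of 5 other enzymes, 0 were higher and 1, mug72, was lower, beside the same shares of all genes. mug84, a subunit of the enzyme that starts GPI anchor synthesis, was at -0.14 (SE 0.15). The single mitochondrial member, the ribosomal protein mug178, was at -0.89 against input (SE 0.14, edgeR adjusted p = 2.62e-05). Against IgG it was at 0.47 (edgeR adjusted p = 0.0388), which was lost without either Slr1p IP library and with DESeq2.

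Values were also set against input level. The 19 members in the upper 50% by input level had 3 higher and 12 lower in Slr1p IP than in input, where 28.6% and 45.3% of the 2532 other protein-coding genes of that range were higher and lower. The other 88 members had 23 higher and 24 lower, beside 38.5% and 32.4% of the 2366 other genes there. In IgG against input the 19 had 2 higher and 14 lower, beside 20.0% and 57.7% of the other genes of the upper 50%, so both sets leaned to the lower side; whether they differ was not tested. Across 107 tested members the Spearman correlation of the log2 fold change with mean input level was -0.32 for Slr1p IP against input, 0.07 for Slr1p IP against IgG and -0.27 for IgG against input. Over 4898 other protein-coding genes it was -0.16, 0.43 and -0.46. These points share the libraries and, for the level, the input counts themselves.

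With transcript length, members and other genes differed in their pattern. In IgG against input the Spearman correlation with length was 0.04 over 107 members and 0.50 over the other genes. For Slr1p IP against IgG it was -0.28 and -0.68, and for Slr1p IP against input -0.26 and -0.08. Because most members are scarce, the other genes of the lowest 25% by input level (1104 tested) are the closer comparison, and they had 0.48, -0.50 and 0.03, beside 0.04, -0.27 and -0.32 for the 74 members of that range. In medians, members up to 1133 bases had an IgG against input log2 fold change of -0.04 and those above 1847 bases one of -0.05, whereas other genes went from -0.81 to 0.60. The difference between members and other genes was not tested.

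**Figure D5:**
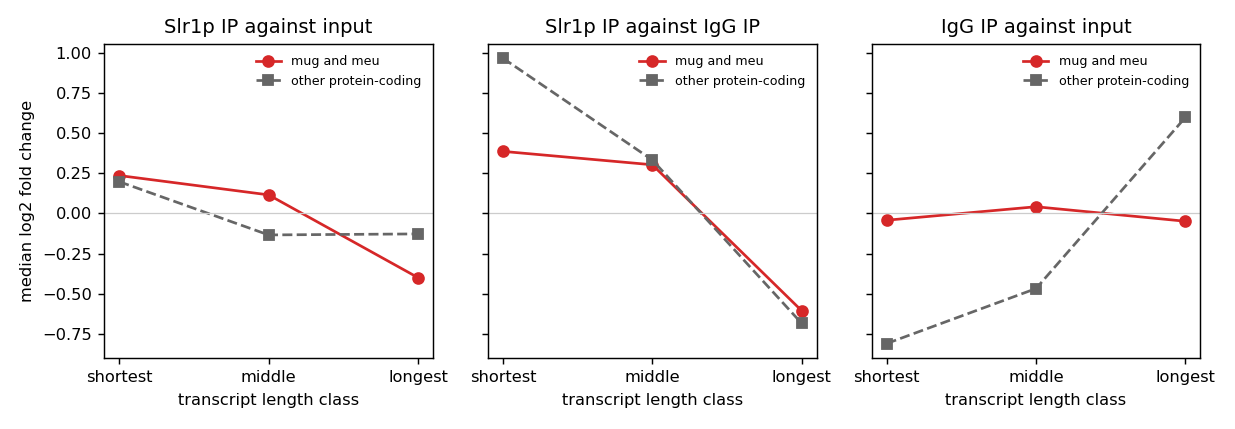
Median log2 fold change in 3 classes of annotated transcript length (up to 1133 bases, 1133 to 1847, and above) for mug and meu genes (35, 35 and 37 tested) and other protein-coding genes (1240, 1479 and 2179), in the 3 comparisons. In the IgG against input panel the member line stays between -0.05 and 0.04 while the other genes go from -0.81 to 0.60; points are medians over genes, which are not replicates, and carry no error bar.

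Removing the length and GC trend moved mug62, an AMP-binding enzyme with a transcript of 4537 bases, more than any other named member against IgG. It stood at 0.401 and 0.245 CPM in input, 0.335 and 0.569 CPM in Slr1p IP and 1.74 CPM in IgG, with log2 fold changes of -1.95 against IgG (SE 0.50, edgeR adjusted p = 0.00309) and -0.51, not called, with the trend removed. For mug122, a PX domain protein with a transcript of 3031 bases, the direction turned from -0.48 (SE 0.14, edgeR adjusted p = 0.00836) to 0.35, and the first call was lost without either Slr1p IP library. mug176 was nearly unmoved, at -0.61 and -0.62.

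Members differed from other genes in their annotation as well. Their median transcript was 1425 bases long against 1687, their median coding sequence 891 against 1143 bases, and 68 of 109 (62.4%) had 1 exon against 51.5% of the others. A counted gene on the opposite strand overlapped 67 members (61.5%), against 52.4% of all protein-coding genes counted. Members without such a gene had 9 higher and 22 lower of 41 in Slr1p IP against input, beside 30.6% and 42.3% of other protein-coding genes without one. Those with one had 17 higher and 14 lower of 66, beside 35.9% and 36.1%. Their median input levels per length were 5.43 and 1.81. The kit keeps strand, but the strand setting of the counting is not given in the sources used here, and the part of antisense reads in these values was not tested.

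The hexamer of Mmi1, read as TTAAAC on the coding strand, occurred in the coding sequence of 35 members (32.1%), close to the 33.1% of all protein-coding genes counted. Per kilobase of coding sequence, members held 0.502 TTAAAC and 2.35 TNAAAC (which includes TTAAAC), against 0.338 and 1.69 for all genes. In all, 6 of 109 members had 3 or more TTAAAC, beside 148 of the 5102 protein-coding genes counted. In 2 of the 6, mug62 and mug28, no stretch of 61 bases held more than a single TTAAAC, and none is shown. For the other 4, stretches of 61 bases are shown with TNAAAC in capitals, because Mmi1 is known to read clustered hexamers. They start at coding base 241 of mug45, 1690 of mug4, 535 of meu43 and 1966 of mug8.
mug45: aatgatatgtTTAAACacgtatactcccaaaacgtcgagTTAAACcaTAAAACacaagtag
mug4: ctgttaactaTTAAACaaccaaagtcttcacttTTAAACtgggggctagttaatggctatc
meu43: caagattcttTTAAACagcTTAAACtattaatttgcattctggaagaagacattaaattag
mug8: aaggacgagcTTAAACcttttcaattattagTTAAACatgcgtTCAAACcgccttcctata

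These members were moderately scarce to scarce and did not share a direction. mug8 stood at 13.0 and 13.6 CPM in input, 7.73 and 7.33 CPM in Slr1p IP and 15.6 CPM in IgG, and was lower than both, at -0.82 (SE 0.15, edgeR adjusted p = 0.000118) and -1.05 (SE 0.19, edgeR adjusted p = 0.000171). meu43 stood at 1.12 and 1.46, 2.38 and 2.26, and 1.82 CPM, and was higher than input, by 0.84 (SE 0.23, edgeR adjusted p = 0.00451). mug45 and mug4 were at -0.43 and -0.40 against input (SE 0.20 each) and not called. Of the 34 tested members with TTAAAC, 6 were higher and 12 lower than input, beside 34.1% and 35.7% of other protein-coding genes with it. Of the 73 without it 20 were higher and 24 lower, beside 33.0% and 40.7%.

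LARP1 in animals is known for binding mRNAs whose 5′ end is a run of pyrimidines. Among the 58 members with at least 20 annotated bases before the start codon, 3 (5.17%) began with at least 5 pyrimidines from base 1, 2 or 3, against 10.9% of all protein-coding genes with such an annotation. Their first 20 bases are shown with the run in capitals.
mug51: TTCCCTTacctaccttggca
mug108: TTCCCaaaatacagtacata
mug123: agCTTCCgcacatttgcaat

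None of the 3 was called against input. mug51 stood at 7.02 and 8.58 CPM in input, 8.75 and 8.16 CPM in Slr1p IP and 6.39 CPM in IgG, log2 fold change 0.12 (SE 0.16, edgeR adjusted p = 0.543). mug123 was at -0.26 (SE 0.14) against input and at 0.51 over IgG (SE 0.21, edgeR adjusted p = 0.0395), a call lost after removal of the trend on length and GC (0.13). mug108, on 23 to 32 counts in each input and Slr1p IP library, was at 0.08 against input (SE 0.35). Annotated ends may differ from the ends of the molecules in these cells.

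A list of meiosis and sporulation genes with other symbols was read beside the members. Of 66 listed genes 62 were found and 61 tested, and their median input level per length was 1.39. In Slr1p IP 22 were higher and 13 lower than input, beside 35% and 34.2% of all genes tested. Against IgG 9 were higher and 24 lower, beside 34% and 32.3%. In IgG against input, 30 were higher and 13 lower, beside 34.1% and 36.5% of all genes tested. The median there was 0.90, beside -0.06 for all genes, and the members had 29 and 34 of 107. dhc1, the dynein heavy chain of meiotic nuclear movement, stood at 15.3 and 21.0 CPM in input, 29.8 and 29.3 CPM in Slr1p IP and 245 CPM in IgG. spo15, a spindle pole body protein needed for sporulation, stood at 28.4 and 39.7, 86.5 and 85.4, and 439 CPM. In both, IgG was far above every other library. Over other protein-coding genes IgG against input rose with transcript length (Spearman correlation 0.50). No value with that trend removed is given for dhc1 or spo15, and the part of length was not tested. tht2, needed for nuclear fusion at mating, was higher than both controls, by 1.82 over input (SE 0.22) and 1.53 over IgG (SE 0.37, edgeR adjusted p = 0.00183). Whether the members and these genes differ was not tested.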

How the data were processed

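Deposited values were raw counts of reads for 6727 genes, with a separate file for each library. Libraries were stranded (NEBNext Ultra II Directional kit) and read in pairs of 50 bases, per the labels. The submitters' processing notes name HTSeq 0.6.1p2, STAR 2.6.0c, Trim Galore, FastQC 0.11.5 and bcl2fastq 2.20 without saying what each did. Genome build, annotation and strand setting were not stated in the sources used here, so names, lengths and sequences came from RefSeq assembly ASM294v3, to which 6562 of the gene identifiers matched.

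The quasi-likelihood test of edgeR 4.0.16 in R 4.3.3 was run on the counts of all genes, with TMM scaling, filterByExpr by group, 1 mean per group over all 5 libraries, and Benjamini-Hochberg adjustment over the 6376 genes left. A gene was called at an adjusted p under 0.05. Values are CPM scaled by TMM, and log2 fold changes have their standard error (SE). Exact intervals for ratios on 1 to 3 counts, and bounds at 3 counts where a library had 0, cover counting error only. The fit was tested on simulated counts. Titles call replicates biological, and nothing else describes them.

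Named members were the 10 highest and 10 lowest called against input and against IgG, the 5 of each for IgG against input, the 12 most abundant in input, the 2 most abundant per role class, and those moved most and least by removing trends, of which 1 is not reported here. Genes shown for their sequence, the members mug174, mug28, mug56, mug109, mug70, mug191, meu22 and mug30, and the meiosis genes dhc1, spo15 and tht2 were chosen after their values were seen. Members and lists were chosen with earlier results of these data known. Alternatives were DESeq2 1.42.0, library totals alone, no filter, each input or Slr1p IP library left out in turn, and a replicate block. In further alternatives, smooth trends with length and GC, with or without abundance (mgcv 1.9.3), were removed. The meu1 gene, whose counts are split over separate identifiers, was not used.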

Additional observations from a re-analysis of the deposited data

How the results depend on the processing

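In each comparison the numbers of members called higher and lower stayed within 1.5 times their main values, with no exception. This held with DESeq2, library totals alone, no low-count filter and each input or Slr1p IP library left out. The IgG IP, a single library, was not left out, and for IgG against input only input libraries were. Leaving out 1 library gave 50 to 69 called (19 to 30 higher, 29 to 39 lower) for Slr1p IP against input, 47 to 68 (20 to 34, 27 to 34) against IgG, and 65 (31 and 34) for IgG against input. The medians then ran from -0.128 to 0.0076, -0.0838 to -0.0132 and -0.112 to -0.00835. Asking for an absolute log2 fold change of at least 1 left 38 called (17 and 21) against input and 40 (16 higher) against IgG. The 8 tested members that overlap no other annotated gene gave 6 called (3 and 3), 2 (1 and 1) and 5 (4 and 1), with medians of 0.26, -0.0484 and 0.49.

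Without the trend on length and GC, medians were 0.11, -0.15 and 0.13, and 16 members were higher than IgG. With abundance in the trend, Slr1p IP against input had a median of 0.17, IgG against input one of -0.074, and 18 members were higher than IgG. Medians were -0.13 against IgG and 0.083 for IgG against input with library totals alone, and -0.0488 against IgG with DESeq2. Of the 62 members called against IgG, 4 turned in direction without the length and GC trend and 8 with abundance removed too, with 0 of them called after turning: mug56 (0.14 and 0.13), mug70 (0.06 and 0.22), mug122 (0.35 and 0.21), mug168 (-0.0021 and -0.0482) and, with abundance only, mug151 (-0.0527), meu22 (0.13), mug30 (0.12) and mug4 (0.05). In IgG against input, mug4 turned with abundance removed (-0.12). The cause was not tested.

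Whether same-numbered libraries came from the same culture is not stated. Deviations of same-numbered input and Slr1p IP libraries had a correlation of -0.06 over 6376 genes. With only 2 pairs, this cannot decide whether the libraries were paired. With the number as a replicate block, 25 members were higher and 34 lower of 104 tested, and of the named calls that of mug9 was lost. Without the block, those 4 libraries gave 26 and 37. In the IgG library 1 count is 0.0726 CPM, which limits the values of scarce members there, and its spread rests on the other groups.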

Other observations

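The meu1 gene, whose symbol meets the naming rule, is split over separate identifiers in the deposited counts and entered no comparison. One of them had 80 and 84 counts in input, 207 and 142 in Slr1p IP and 158 in IgG, and the other was at 0 in all 5 libraries.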
